A study of Mus musculus with 6 samples.

Results

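The 46 genes described here make up the receiving and sending ends of the Wnt pathway: the Wnt ligands, their Frizzled receptors, the co-receptors Lrp5, Lrp6, Ryk, Ror1 and Ror2, the R-spondin receptors Lgr4 and Lgr5, the ubiquitin ligases Znrf3 and Rnf43, the Tcf/Lef transcription factors, and the feedback genes Axin2, Nkd1, Nkd2 and Notum. They were chosen by symbol, as every gene whose single symbol in the platform annotation is Wnt or Fzd followed by a digit, plus those named above. The rule sets no threshold on a measured value. Of the 46, 45 had a probe set and 44 could be tested, among 16923 tested genes in all. The remaining member without a value, Tcf7l1, had no probe set under that symbol. The annotation also holds the symbol Tcf3, an older name of Tcf7l1 that is now the name of another gene, and its probe sets were not used.

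The cells were OP9, a mouse stromal line derived from Csf1-mutant op/op animals and used to support haematopoietic cells in culture. Both groups carried a stably integrated lentiviral hairpin of the pLKO.1-Puro type and were kept below confluence. In the control shRNA group the hairpin was scrambled, and in the Smo shRNA group it targeted Smoothened (Smo), the membrane protein that Hedgehog signalling requires. Each group was 1 stable line whose RNA was isolated 3 times, giving 3 and 3 Affymetrix Mouse Exon 1.0 ST arrays. Nothing in the labels says that the RNA samples came from separate transductions or cultures, so the p-values cover no more than the spread between these samples, which may be technical, and what the hairpin did cannot be told apart from any other difference between the lines. The sources used here do not give the number of hairpin sequences.

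Wnt proteins are lipid-modified ligands that bind Frizzled receptors. With Lrp5 or Lrp6 they stabilise beta-catenin, which acts with Tcf/Lef factors on target genes, while Ror and Ryk receptors carry signals that do not need beta-catenin. Znrf3 and Rnf43 remove Frizzled receptors from the cell surface, and R-spondins, binding Lgr4 or Lgr5, block that removal. In marrow stroma the pathway is known for its part in osteoblast and adipocyte fate and in support of blood-forming cells.

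All values are log2 hybridization values. A gene value is the median polish of the gene's kept probe sets on 1 array, where a probe set was kept if its mean over the 6 arrays reached 6.56, the median of all probe sets. A gene needed 3 kept probe sets. A difference is the Smo shRNA mean less the control shRNA mean, in log2 units, SE is the moderated standard error of limma, and adjusted p is limma's two-sided p after Benjamini-Hochberg adjustment over all 16923 genes, with a threshold of 0.05. Levels of different genes cannot be set against each other, since probe sets differ in how brightly they hybridize.

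Gene values of arrays from 1 line correlated at 0.996 to 0.998 across genes and those of arrays from different lines at 0.979 to 0.981. Smo was lower in Smo shRNA cells by 0.88 (SE 0.04, adjusted p = 1.22e-09), at 12.25 ± 0.03 (SD, n = 3) against 11.37 ± 0.06 (SD, n = 3). Stromal markers were measured at 10.43 to 13.30 in control cells for Col1a1, Col1a2, Col3a1, Pdgfra, Pdgfrb, Cxcl12 and Vcam1, while Dcn (6.91) and Thy1 (7.27) lay near the level at which probe sets were kept. None of 6 haematopoietic, 5 endothelial and 4 epithelial markers passed the threshold. Of 5 adipocyte markers 4 fell and 1 rose, where 17.4% of all tested genes fell and 21.2% rose.

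Of the 44 tested members, 9 fell, 3 rose and 32 did not pass, so 27.3% were called, against a background of 38.6% of all tested genes. The background was 17.4% of genes lower and 21.2% higher, and the members' shares were 20.5% lower and 6.82% higher. The median difference was -0.03 over the members and 0.01 over all tested genes. In every one of the 12 called members the 3 control arrays and the 3 Smo shRNA arrays did not overlap. Over all tested members 16 of 44 (36.4%) did not overlap, where 47.8% of all genes did not. Of the 12 called members 3 (25%), Fzd4, Fzd8 and Znrf3, changed 1.5-fold or more, against 15.6% of all called genes. Lgr5, at 1.48-fold, also passed that size with no filter on dim probe sets (-1.05). The count of lower members was 5 without control replicate 1 and 5 without Smo shRNA replicate 2, while the count of higher members stayed at 2 to 3 without any 1 array.

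**Figure D1:**
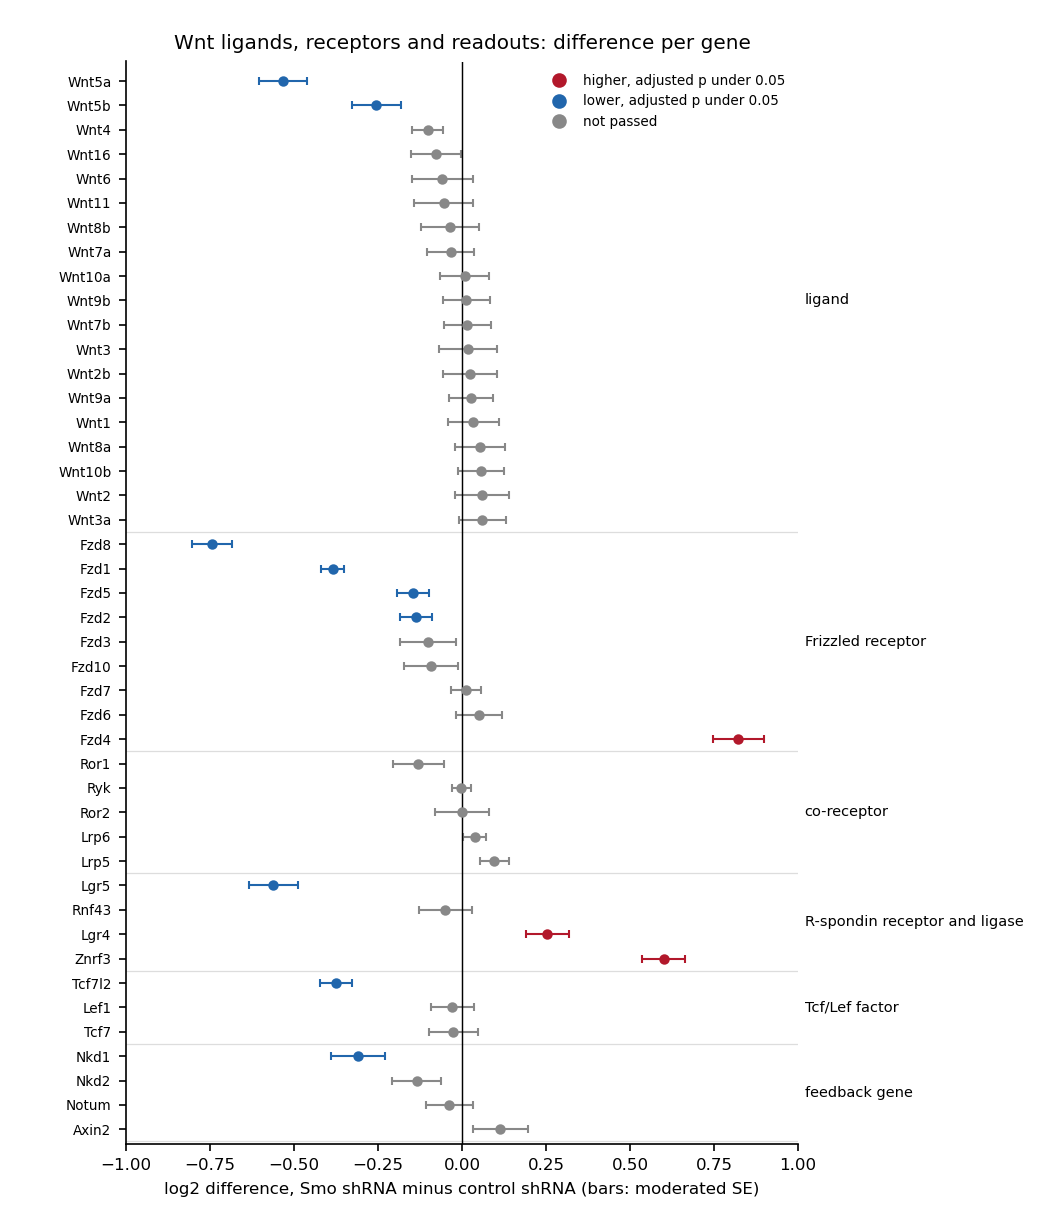
Log2 difference, Smo shRNA minus control shRNA, of the 44 tested genes grouped by role, with 1 point per gene and bars of 1 moderated SE (3 arrays a group). Blue genes fell and red genes rose at an adjusted p under 0.05. The 17 grey ligands lie between -0.10 and 0.06. With dim probe sets left out and median polish, the largest changes in each direction are those of the receptors Fzd8 (-0.74) and Fzd4 (0.82).

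Brightness of a gene went with how often it was called. Of 13 members at or above the median gene level of 9.20, 8 (61.5%) were called, against 59.2% of all genes at or above that level. Of 31 members under it, 4 (12.9%) were called, against 18% of all such genes. The members' shares therefore lay near those of other genes of like level. For a dim member a p that misses the threshold bounds the change of its signal only as far as its interval does. Members under the median level had means over the 6 arrays of 7.07 to 8.87. Haematopoietic, endothelial and epithelial markers lay at 7.29 to 8.36, 7.09 to 8.07 and 7.67 to 8.64. Signal at such levels may be background, and whether these members were expressed was not tested.

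**Figure D2:**
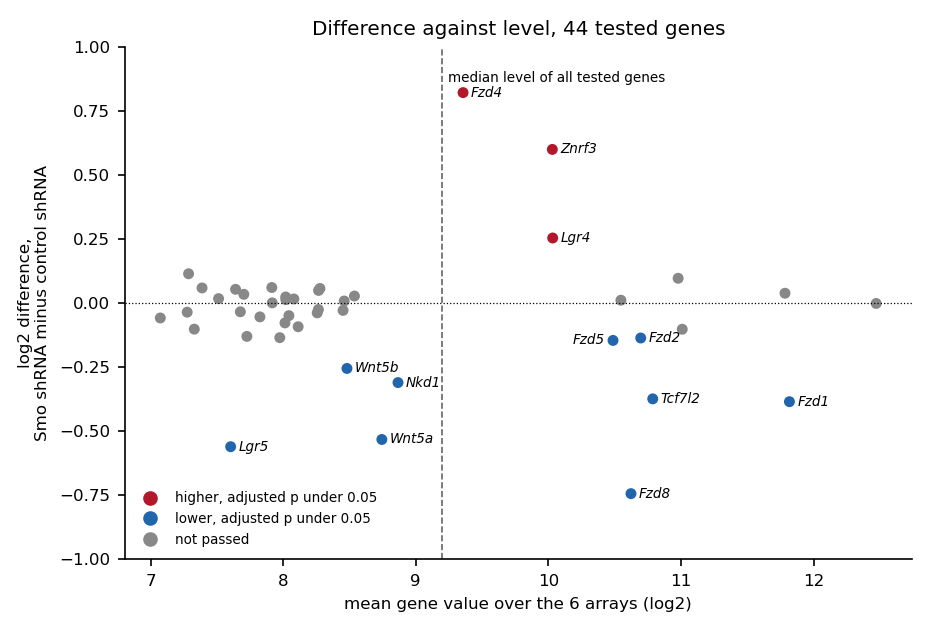
Log2 difference of each of the 44 tested genes against its mean gene value over the 6 arrays, with the median level of all tested genes (9.20) as a dashed line. The 3 genes that rose lie to the right of the line, and 4 of the 9 that fell (Wnt5a, Wnt5b, Nkd1 and Lgr5) lie to its left.

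Among the 19 ligands only Wnt5a and Wnt5b passed the threshold, and both fell. That is 10.5% of the ligands, against 38.6% of all genes and 18% of genes under the median gene level, where 18 of the 19 lay. Wnt5a, a ligand known mainly for signalling without beta-catenin through Ror receptors, read 9.09, 8.90 and 9.05 on the control arrays and 8.55, 8.38 and 8.51 on the Smo shRNA arrays. Every Smo shRNA array lay below every control array, and Wnt5a was 1.45-fold lower (log2 difference -0.53, SE 0.07, adjusted p = 4.3e-05). All 20 of its kept probe sets were lower, by 0.13 to 0.92, and 12 of them passed on their own.

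Wnt5b, the closest relative of Wnt5a, read 8.65, 8.53 and 8.65 on the control arrays and 8.43, 8.39 and 8.24 on the Smo shRNA arrays. The groups did not overlap, but the gap between them was narrow, and the difference was -0.26 (SE 0.07, adjusted p = 0.0123). Of its 11 probe sets 10 were lower and 0 passed on their own, with p adjusted over 245574 kept probe sets. The call was lost without control replicate 1 (-0.15), control replicate 2 (-0.22), control replicate 3 (-0.18), Smo shRNA replicate 2 (-0.16) or Smo shRNA replicate 3 (-0.09).

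The other 17 ligands had differences from -0.10 to 0.06, with a median of 0.02. Wnt4, a ligand with roles in kidney and gonad development, came nearest to the threshold, at 11.04, 11.00 and 11.14 in control cells and 10.97, 10.94 and 10.97 in Smo shRNA cells. Its arrays did not overlap, yet the difference of -0.10 (SE 0.05, adjusted p = 0.0965) did not pass. Wnt4 passed without control replicate 2 (-0.13), with quantile normalization (-0.12) and with array weights (-0.10). The other 16 had group means of 7.04 to 8.55. Among them are Wnt1, Wnt3 and Wnt3a, ligands known for signalling through beta-catenin, with differences of 0.03, 0.02 and 0.06. Their 95% intervals ran from -0.13 to 0.20 for Wnt1, from -0.17 to 0.20 for Wnt3 and from -0.09 to 0.21 for Wnt3a.

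Wnt ligand genes often lie side by side in the genome. By the gene order in RefSeq, 4 pairs of ligands were neighbours among protein-coding genes: Wnt6 with Wnt10a on chromosome 1, Wnt3a with Wnt9a and Wnt3 with Wnt9b on chromosome 11, and Wnt1 with Wnt10b on chromosome 15. None of these 8 ligands passed the threshold, and their differences ran from -0.06 for Wnt6 to 0.06 for Wnt3a. The ligands that fell, Wnt5a on chromosome 14 and Wnt5b on chromosome 6, have no Wnt gene as a neighbour. The same holds for several ligands that did not pass, among them Wnt4, Wnt2, Wnt11 and Wnt16.

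Of the 9 tested Frizzled receptors 4 fell (Fzd8, Fzd1, Fzd5 and Fzd2), 1 rose (Fzd4) and 4 did not pass. The share called, 55.6%, stood against 38.6% of all genes and, since 6 of the 9 lay above the median gene level, was near the 59.2% of genes at or above that level. Of the 10 Frizzled genes, 6 have a promoter window in the RefSeq-derived table of assembly GRCm38.p6. The windows of 3 of those that changed are shown here, because they carry or lack the letters of a Tcf/Lef motif. The ligand Wnt5b has several windows, and the 1 shown was chosen because it carries such a match. Its other windows, chr6:119467212-119467461 and chr6:119544348-119544597, carry none. Each window is the 250 bases before the annotated start, 5′ to 3′ on the gene's strand, and capitals mark a motif match.
Fzd1, chr5:4758217-4758466, minus strand: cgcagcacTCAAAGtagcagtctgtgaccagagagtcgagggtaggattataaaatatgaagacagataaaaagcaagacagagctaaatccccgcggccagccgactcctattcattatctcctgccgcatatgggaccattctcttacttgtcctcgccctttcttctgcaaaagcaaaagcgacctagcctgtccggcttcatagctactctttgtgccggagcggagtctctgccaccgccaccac
Fzd5, chr1:64737751-64738000, minus strand: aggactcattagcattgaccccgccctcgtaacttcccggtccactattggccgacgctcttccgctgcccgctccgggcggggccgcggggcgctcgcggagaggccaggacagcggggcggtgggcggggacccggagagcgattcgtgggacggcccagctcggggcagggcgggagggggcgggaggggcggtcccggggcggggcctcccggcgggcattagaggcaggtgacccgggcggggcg
Fzd4, chr7:89404116-89404365, plus strand: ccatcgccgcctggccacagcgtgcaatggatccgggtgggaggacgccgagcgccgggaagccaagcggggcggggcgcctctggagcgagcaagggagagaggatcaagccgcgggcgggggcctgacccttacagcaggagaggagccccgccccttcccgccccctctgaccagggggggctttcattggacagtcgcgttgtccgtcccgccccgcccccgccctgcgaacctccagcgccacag
Wnt5b, chr6:119449387-119449636, minus strand: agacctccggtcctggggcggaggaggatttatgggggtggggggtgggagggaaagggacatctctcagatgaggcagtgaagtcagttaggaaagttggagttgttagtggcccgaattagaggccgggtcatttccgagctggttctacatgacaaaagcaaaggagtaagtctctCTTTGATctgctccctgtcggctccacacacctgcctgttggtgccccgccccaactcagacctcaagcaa

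Windows were matched for 33 of the 46 members, 42 windows in all, since some genes have several starts. CTTTGA, the core of the motif that Tcf/Lef factors bind, was searched on both strands, and the longer CTTTGAT and CTTTGAA contain it. CTTTGA stood in 5 of the 42 windows, against 13.8% of all 32851 windows of the table. Counted by gene, 5 of the 33 members had a match in any window. Among the 7 called members that have a window 2 did, Fzd1 and Wnt5b. The called members Wnt5a, Fzd8, Fzd2, Znrf3 and Lgr5 have no window and were not searched. Counts by gene cannot be set against the share of windows, since a gene with several windows has more places for a match. CTTTGAT stood in 2 of the 42, the Wnt5b window shown and 1 of Wnt11, against 3.21% of all windows, and CTTTGAA in 0 of the 42 against 4.46%. ACCACCC, a core of the motif of the Gli factors that act downstream of Smo, stood in 1 window of Lef1 and in none of the called members' windows, against 3.92% of all windows. The Fzd1 window shown had a GC content of 51.2%, and those of Fzd5 and Fzd4 had 76.4% and 72.8%. The median was 52.4% over all windows and 66.6% over the members' windows. The motif shares were not corrected for this difference in base content.

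With dim probe sets left out and probe sets joined by median polish, Fzd8 fell the most of all members. Lgr5 fell more than Fzd8 with dim probe sets kept (-1.05), and also with the mean of the kept probe sets. Fzd8 read 11.08, 10.88 and 11.02 on the control arrays and 10.20, 10.22 and 10.34 on the Smo shRNA arrays. The lowest control array stood well above the highest Smo shRNA array, and Fzd8 was 1.68-fold lower (log2 difference -0.74, SE 0.06, adjusted p = 2.99e-07). All 10 of its kept probe sets were lower, by 0.25 to 0.90, and 9 passed on their own.

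Fzd1 read 12.05, 11.97 and 12.01 on the control arrays and 11.62, 11.65 and 11.60 on the Smo shRNA arrays. Arrays of a line lay close together, so that a 1.31-fold change stood clear of the spread (-0.39, SE 0.04, adjusted p = 1.14e-06). Its 5 probe sets agreed closely, with differences from -0.44 to -0.39, and 4 passed on their own.

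Fzd5 and Fzd2 fell by small amounts. Fzd5 read 10.60, 10.52 and 10.56 in control cells and 10.45, 10.37 and 10.43 in Smo shRNA cells (-0.15, SE 0.05, adjusted p = 0.0256). Fzd2 read 10.84, 10.70 and 10.75 in control cells and 10.61, 10.65 and 10.62 in Smo shRNA cells (-0.14, SE 0.05, adjusted p = 0.0362). Neither gene's groups overlapped, though each was about 1.1-fold apart. All 7 kept probe sets of Fzd5 were lower, and 2 passed on their own. Of the 6 of Fzd2, 5 were lower, 2 of them past the threshold, and 1 was higher by 0.21. The Fzd5 call was lost without control replicate 1 (-0.10), control replicate 3 (-0.12), or Smo shRNA replicate 1 (-0.16), 2 (-0.11) or 3 (-0.16). The Fzd2 call was lost without control replicate 1 (-0.12), control replicate 3 (-0.13), or Smo shRNA replicate 1 (-0.12), 2 (-0.18) or 3 (-0.12), with the mean of probe sets (-0.11), and with no variance trend (adjusted p = 0.0666).

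Fzd4, a receptor for Norrin as well as for Wnt ligands and known for its part in retinal vessel growth, rose the most of all members. It read 9.01, 8.77 and 9.05 on the control arrays and 9.70, 9.83 and 9.77 on the Smo shRNA arrays. Control replicate 2 was the lowest of the 6, and no control array reached the Smo shRNA arrays. Fzd4 was 1.77-fold higher (0.82, SE 0.08, adjusted p = 1.21e-06), and all 9 of its kept probe sets rose and passed on their own, by 0.46 to 1.45.

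The 4 Frizzled genes that did not pass had differences from -0.10 (Fzd3) to 0.05 (Fzd6). Fzd7, the closest relative of Fzd1 and Fzd2, read 10.57, 10.53 and 10.52 in control cells and 10.56, 10.54 and 10.56 in Smo shRNA cells. Its difference of 0.01 had a 95% interval from -0.08 to 0.11, which does not reach the difference measured for Fzd1, although the difference between the genes was not tested. Fzd9 had 1 probe set and was not tested. That probe set read 8.30, 7.90 and 8.01 in control cells and 8.24, 8.18 and 8.06 in Smo shRNA cells, with overlapping groups. Frizzled genes are close in sequence, and a probe set of one can carry signal of another.

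**Figure D3:**
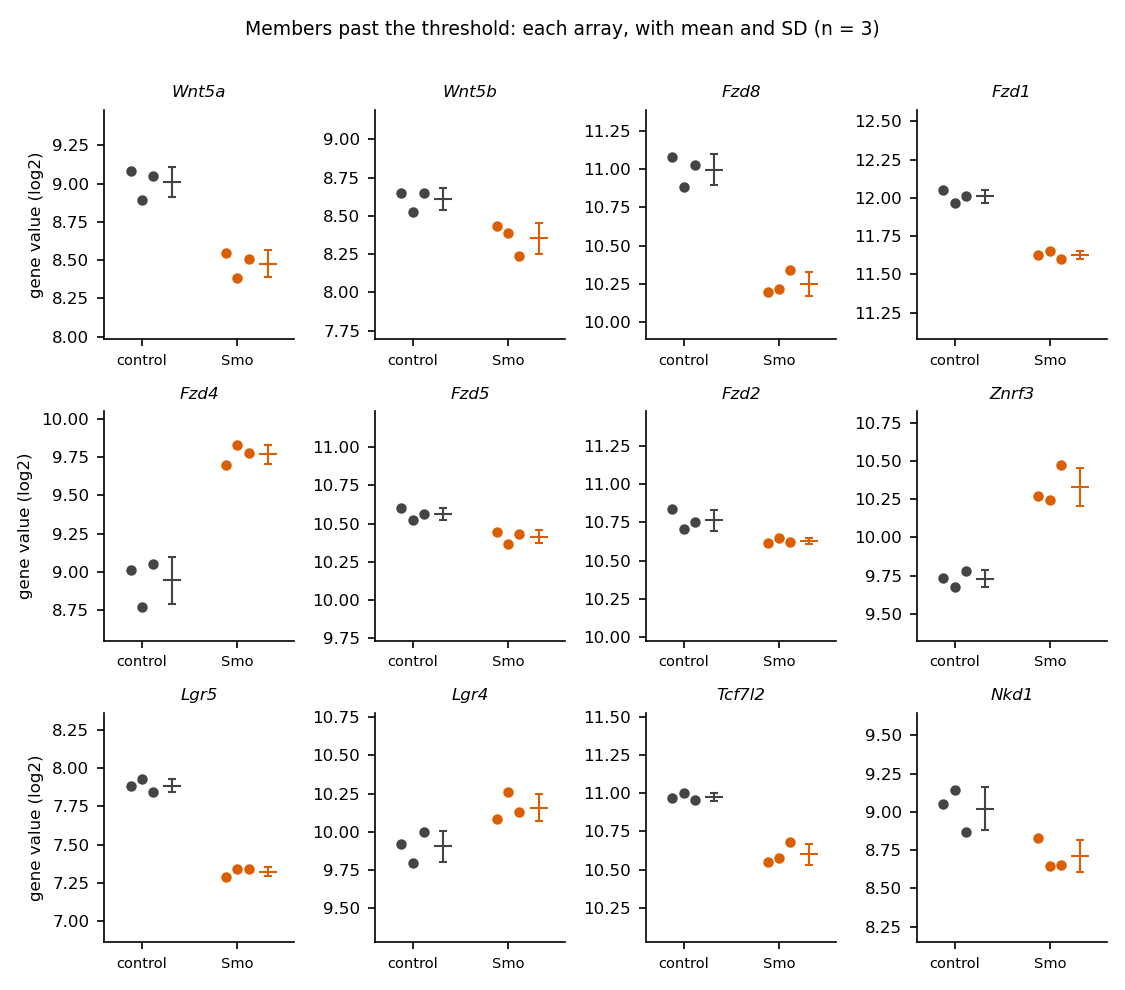
Gene value (log2) of the 12 members past the threshold on each array, with control shRNA in grey and Smo shRNA in orange (3 points each), and beside them the mean with bars of 1 SD. Every panel spans 1.5 log2 units, and in none do the 2 groups overlap. The gap between the nearest arrays of the groups is widest in Fzd4 and Fzd8 and narrowest in Nkd1 and Fzd2.

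None of the 5 co-receptors passed the threshold in limma, where 38.6% of all genes did. Lrp5, Lrp6 and Ryk lay above the median gene level, where 59.2% of all genes were called, and Ror1 and Ror2 under it, where 18% were. Of the 5, Lrp5 alone had an unadjusted limma p under 0.05 (0.0488). Lrp6 and Ryk read at nearly the same level in both lines, with differences of 0.04 (95% interval -0.03 to 0.11) and -0.00 (95% interval -0.06 to 0.06). Lrp5, the partner of Lrp6 in beta-catenin signalling, read 10.97, 10.87 and 10.95 in control cells and 11.02, 11.07 and 10.99 in Smo shRNA cells. Its groups did not overlap, but the difference of 0.10 (SE 0.04, adjusted p = 0.111) did not pass. Of 30 Lrp5 probe sets 24 were higher, 5 of them past the threshold, where 17.5% of all kept probe sets were called higher. The Lrp5 difference passed with array weights (0.09, adjusted p = 0.0423). Ror1, a receptor for Wnt5a, was at -0.13 (SE 0.08, adjusted p = 0.212) with groups that did not overlap, and Ror2, also a Wnt5a receptor, at 0.00 (95% interval -0.17 to 0.18).

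Genes of the R-spondin arm moved in opposite directions. Znrf3, the ubiquitin ligase that clears Frizzled receptors and is itself a target of beta-catenin, read 9.73, 9.67 and 9.78 on the control arrays and 10.27, 10.25 and 10.48 on the Smo shRNA arrays. Smo shRNA replicate 3 was the highest, and all 3 lay above every control array. Znrf3 was 1.52-fold higher (0.60, SE 0.07, adjusted p = 5.65e-06), with 14 of 17 probe sets higher and 13 past the threshold on their own. Its relative Rnf43 did not pass (-0.05, 95% interval -0.22 to 0.12).

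Lgr4, the R-spondin receptor found in many tissues, rose by 0.25 (SE 0.07, adjusted p = 0.00632). It read 9.92, 9.79 and 10.00 in control cells and 10.09, 10.26 and 10.13 in Smo shRNA cells, and all 19 probe sets were higher, 11 of them past the threshold. The Lgr4 call was lost without control replicate 1 (0.26), control replicate 2 (0.19), Smo shRNA replicate 2 (0.18) or Smo shRNA replicate 3 (0.25). Lgr5, its relative and a stem cell marker in gut and skin, moved the other way. Lgr5 read 7.88, 7.93 and 7.84 on the control arrays and 7.29, 7.34 and 7.34 on the Smo shRNA arrays, and was 1.48-fold lower (-0.56, SE 0.07, adjusted p = 2.52e-05).

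The probe sets of Lgr5 differed far more among themselves than those of any other member. Of 19 kept probe sets 18 were lower and 10 passed on their own, and the differences ran from -3.24 to 0.03. The probe set that fell most read 9.09, 8.44 and 9.38 on the control arrays and 5.63, 5.55 and 6.03 on the Smo shRNA arrays. The next read 8.87, 8.28 and 8.93 against 6.63, 6.55 and 7.18. At the other end a probe set with a mean of 9.70 over the 6 arrays differed by 0.03. Only 19 of 32 Lgr5 probe sets reached the mean of 6.56, and with no filter on dim probe sets the Lgr5 difference was -1.05, so the size of its fall is uncertain.

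**Figure D4:**
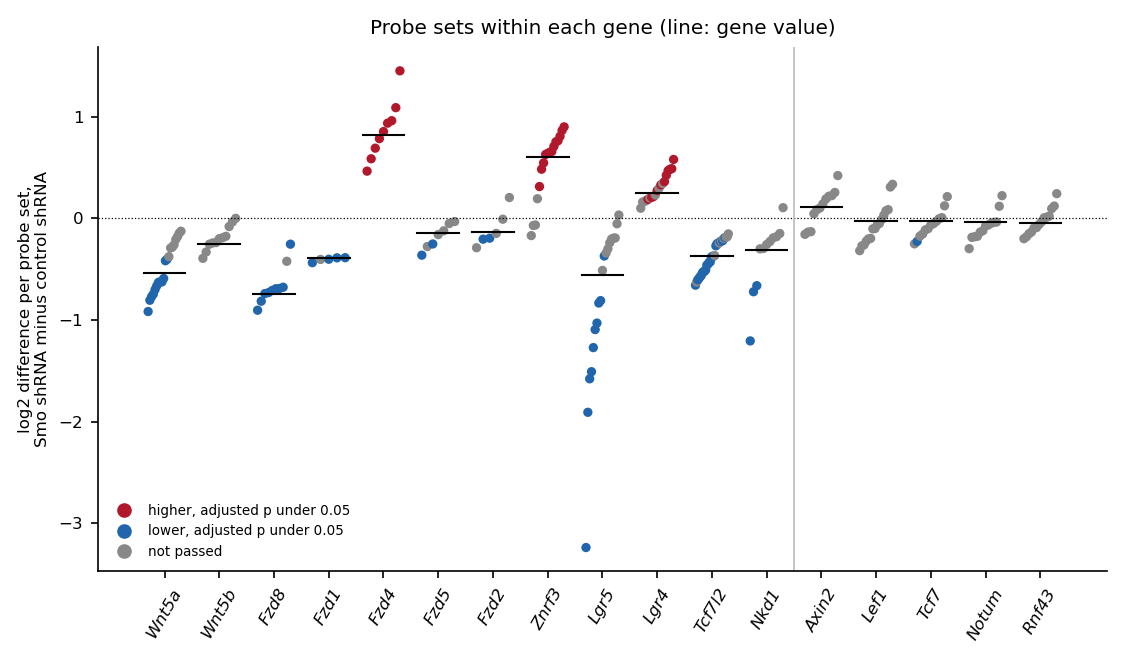
Log2 difference of each kept probe set (points, ordered within a gene) of the 12 called members and of Axin2, Lef1, Tcf7, Notum and Rnf43 to the right of the grey line, with the gene's own difference as a black bar. Coloured points passed at an adjusted p under 0.05 over all kept probe sets. The probe sets of Fzd1 lie within -0.44 to -0.39, those of Lgr5 spread from -3.24 to 0.03.

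Across the 509 kept probe sets of the members, 42 were higher (8.25%) and 65 lower (12.8%) at the threshold, against 17.5% and 12.4% of all kept probe sets. Probe sets of 1 gene share its RNA and are not replicates. A few probe sets of genes that were not called passed on their own, chosen here after their values were seen. One probe set of Wnt16 was higher by 1.14 while the other 5 lay between -0.24 and 0.09, and 1 of Wnt4 was higher by 0.55 while 8 of 10 were lower.

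Of the 3 tested Tcf/Lef factors, which bind beta-catenin at target genes, Tcf7l2 fell. It read 10.97, 11.00 and 10.95 on the control arrays and 10.55, 10.58 and 10.68 on the Smo shRNA arrays. All Smo shRNA arrays lay below all control arrays, and Tcf7l2 was 1.30-fold lower (-0.37, SE 0.05, adjusted p = 2.16e-05). All 30 probe sets were lower, by 0.15 to 0.66, and 22 passed on their own. Lef1 and Tcf7, both of which are known targets of the pathway as well as its effectors, did not pass. Lef1 read 8.47, 8.51 and 8.42 against 8.46, 8.42 and 8.44 (-0.03, 95% interval -0.17 to 0.11), and Tcf7 read 8.31, 8.26 and 8.27 against 8.26, 8.36 and 8.14 (-0.03, 95% interval -0.18 to 0.13).

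The feedback genes, which beta-catenin raises and whose products dampen the pathway, did not move together. Axin2, a scaffold of the complex that degrades beta-catenin and the most used readout of the pathway, read 7.30, 7.23 and 7.16 in control cells and 7.43, 7.28 and 7.32 in Smo shRNA cells. The groups overlapped, and the difference of 0.11 (SE 0.08, adjusted p = 0.319) had a 95% interval from -0.06 to 0.29. Nkd1, which binds Dishevelled, read 9.05, 9.15 and 8.87 in control cells and 8.83, 8.65 and 8.65 in Smo shRNA cells. Nkd1 fell (-0.31, SE 0.08, adjusted p = 0.00673), and 10 of its 11 probe sets were lower, 3 past the threshold.

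The Nkd1 call was lost without control replicate 1 (-0.20), control replicate 2 (-0.19), Smo shRNA replicate 1 (-0.25) or Smo shRNA replicate 2 (-0.22). Its relative Nkd2 was at -0.14 (SE 0.07, adjusted p = 0.185) with groups that did not overlap, and passed with array weights (-0.22, adjusted p = 0.00829). Notum, a secreted enzyme that removes the lipid from Wnt ligands, did not pass (-0.04, 95% interval -0.19 to 0.11). Of the 8 genes most often read as targets, Axin2, Lef1, Tcf7, Lgr5, Nkd1, Notum, Rnf43 and Znrf3, 2 fell (Lgr5 and Nkd1), 1 rose (Znrf3) and 5 did not pass. A share of 3 in 8 is close to the 38.6% of all genes that were called. All of the 8 but Znrf3 lay under the median gene level, where 18% of all genes were called.

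Other genes of the pathway were taken from a list of 75, of which 74 were tested. Of these 22 fell, 13 rose and 39 did not pass. The 47.3% called compares with 38.6% of all genes and with 59.2% of genes at or above the median gene level. The list had a median difference of -0.03 and a median level of 9.85, above that of all genes. The count of those that rose was 8 without control replicate 2, 8 without control replicate 3 and 7 without Smo shRNA replicate 3. Both genes needed to make and release Wnt ligands fell. Porcn, the enzyme that adds their lipid, read 10.36, 10.20 and 10.30 in control cells and 9.39, 9.36 and 9.56 in Smo shRNA cells (-0.85, SE 0.07, adjusted p = 2.21e-07). Wls, which carries the ligands to the cell surface, read 12.84, 12.84 and 12.86 against 12.50, 12.56 and 12.53 (-0.32, SE 0.03, adjusted p = 4.84e-07).

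Among extracellular modulators 6 fell, 3 rose and 13 did not pass. The 40.9% called compares with 38.6% of all genes and with 18% of genes under the median gene level, since the median level of the class was 8.14. With dim probe sets left out, the largest falls of the whole list were those of Rspo2 (-1.78) and Rspo3 (-1.69), ligands of Lgr4 and Lgr5, and of the Wnt-binding antagonist Sfrp1 (-1.40), with limma adjusted p of 2.34e-10, 2.05e-08 and 1.41e-09. Gpc4, a cell surface proteoglycan, fell by 0.76 (adjusted p = 1.12e-07). Of planar polarity and non-canonical genes 5 fell, 1 rose and 12 did not pass (33.3% called). Of all genes 38.6% were called, and 59.2% of those at or above the median gene level, where the class median of 9.55 lay. Vangl2, a membrane protein of planar polarity, was at -1.08 (SE 0.06, adjusted p = 6.81e-09), and Daam2, a formin that binds Dishevelled, at -0.92 (SE 0.07, adjusted p = 3.53e-07).

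Genes of Dishevelled and the destruction complex went both ways, with 5 lower, 7 higher and 6 not passed. The 66.7% called compares with 59.2% of genes at or above the median gene level, since the median level of the class was 11.07. Amer1, a membrane anchor of Apc and Axin, fell from 9.61 ± 0.06 (SD, n = 3) to 8.48 ± 0.11 (SD, n = 3), a difference of -1.14 (SE 0.07, adjusted p = 2.73e-08), whereas the calls of the others were of at most 0.46. Of 14 nuclear genes 4 fell, 2 rose and 8 did not pass. The 42.9% called compares with 38.6% of all genes, and with the same 59.2%, since the median level of the class was 10.20. Ctnnb1, the gene of beta-catenin itself, was at 12.74 ± 0.06 (SD, n = 3) and 12.70 ± 0.10 (SD, n = 3) with a difference of -0.04 (95% interval -0.13 to 0.05).

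Of 34 genes known as beta-catenin targets in other tissues, none of them a member, 11 fell, 9 rose and 14 did not pass. The 58.8% called compares with 38.6% of all genes and with 59.2% of genes at or above the median gene level. These targets had a median difference of 0.01 and a median level of 9.91, above that of all genes. The largest changes were those of Ccn5 (-1.17), Met (0.92), Fst (-0.87), Trib2 (0.68), Fosl1 (0.61) and Ccn4 (-0.48), with adjusted p of 4.39e-07 or less. Ccn4 and Ccn5 are matricellular proteins, Met is the receptor of hepatocyte growth factor, Fst an activin antagonist, Fosl1 an AP-1 subunit and Trib2 a pseudokinase. Each of these genes has other regulators, and the list does not measure pathway output.

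**Figure D5:**
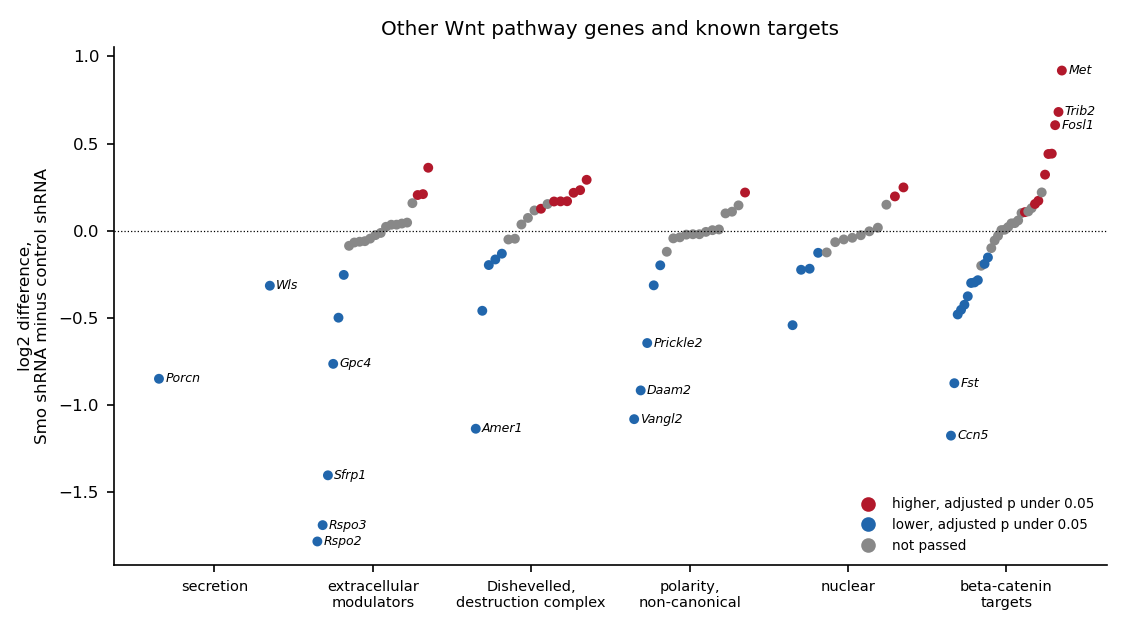
Log2 difference, Smo shRNA minus control shRNA, of the 74 tested other pathway genes by class and of 34 beta-catenin target genes, with 1 point per gene. Blue points fell and red points rose at an adjusted p under 0.05, and names mark differences of 0.6 or more and both secretion genes. The largest falls are those of Rspo2, Rspo3 and Sfrp1, and the targets spread from -1.17 to 0.92.

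Markers of adipocytes and of stroma moved with the same comparison. Of the 5 adipocyte markers Adipoq, Lpl, Fabp4 and Plin1 fell and Pparg rose. All were called, against 38.6% of all genes and 59.2% of genes at or above the median level. The summed level of the adipocyte markers (log2 of the sum of linear gene values) was 13.77 to 13.79 on the control arrays and 13.31 to 13.39 on the Smo shRNA arrays. Of 9 tested stromal markers 6 fell and 0 rose (66.7% lower, against 17.4% of all genes lower and 59.2% of genes at or above the median level called in either direction), with summed levels of 15.25 to 15.29 and 14.88 to 14.99. Of 3 osteoblast markers Alpl rose, Sp7 fell and Ibsp did not pass, where 21.2% of all genes rose and 17.4% fell. Their summed levels were 12.19 to 12.21 and 12.56 to 12.64. A sum follows its brightest genes, and that of the osteoblast markers follows Alpl alone, whose control mean was 12.01 against 8.77 for Sp7 and 7.20 for Ibsp. Their part in the changes of the Wnt genes was not tested, and fewer cells of a type cannot be told apart from less RNA per cell in these samples. The summed levels of haematopoietic, endothelial and epithelial markers overlapped between the lines.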

How the data were processed

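RNA of 3 control shRNA and 3 Smo shRNA samples was hybridized to Affymetrix Mouse Exon 1.0 ST arrays, per the labels. The deposited table holds log2 values of 1256831 probe sets made by the authors. The scale was read from the values, which reach 15.1, and no source used here gives the methods of summary, background correction and normalization. Array medians lay at 6.56 to 6.59. Rows at 0 on every array (20744, none with a gene) were left out. The number of arrays limits the precision.

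The platform annotation gave 318760 probe sets 1 symbol, 6684 several and 931387 none. Of 22296 symbols 18006 were current in the RefSeq table of GRCm38.p6 and 3993 were updated. Probe sets with a mean of at least 6.56 (245574) and genes with at least 3 of them were kept, joined by median polish and tested with limma 3.58.1 in R 4.3.3, with lmFit and eBayes, a variance trend and no replicate block. Probe sets were tested in the same way. The calculation was tested on simulated data.

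Members passing the threshold are given in full, the 8 readout genes always, and of the other lists the 8 and 6 largest called changes. The members and lists were chosen with earlier results of these data known. A total of 14 alternatives were run.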

Additional observations from a re-analysis of the deposited data

How the results depend on the processing

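Of the 12 called members, 7 (Wnt5a, Fzd8, Fzd1, Fzd4, Znrf3, Lgr5 and Tcf7l2) passed in the same direction in all 14 alternatives. The calls of Wnt5b, Fzd5, Lgr4 and Nkd1 were lost only in fits that left out 1 array, and that of Fzd2 also with the mean of probe sets and with no variance trend. Of the 32 that did not pass, Wnt4, Lrp5 and Nkd2 passed in 1 or more alternatives. No member reversed where it was called.

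Leaving out 1 array, with the kept probe sets unchanged, gave 5 to 8 lower and 2 to 3 higher members, 19 to 22 lower and 7 to 12 higher other pathway genes, 8 to 10 lower and 6 to 8 higher targets, 57 to 67 lower and 28 to 45 higher member probe sets, and 2089 to 2786 lower and 2672 to 2918 higher genes in all. These fits have fewer samples by construction. Other settings kept these counts within 1.5 times.

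Deviations of same-numbered arrays correlated at 0.08, 0.10 and 0.39, and 4 of 6 arrays correlated best with their own number. The numbers were not taken as pairs in the main fit, since nothing in the labels says that they mark a shared culture or day. Whether arrays of the same number share a source was not tested. The replicate block gave 9 lower and 3 higher members and 3143 lower and 3796 higher genes. Signal near the filter level limits what can be seen of most ligands.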
